A study of Mus musculus with 8 samples.

Results

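The epidermal growth factor (EGF) receptor family was described here as 10 genes chosen by name from the 32285 features of the expression matrices. They are 7 ligand genes (Areg, Ereg, Epgn, Btc, Hbegf, Tgfa and Nrg1) and 3 receptor genes (Egfr, Erbb2 and Erbb3), taken by symbol alone. Each was measured in epithelial cells and in immune cells of mouse tongue epithelium by droplet single-cell RNA sequencing, in which each unique molecular identifier (UMI) counts 1 captured RNA molecule. All mice carried Krt14-CreERT, a Cre recombinase that tamoxifen activates in Krt14-expressing basal cells, together with LSL-rtTA, which lets doxycycline switch on tetON transgenes in the recombined cells. N mice had these regulatory transgenes only. In E mice tetON_E6-E7, which encodes a pair of human papillomavirus oncogenes, was added. In Y mice the addition was tetON_YAP1S127A, a YAP1 mutant that stays active, and EY mice had both. A tetON_H2B-GFP reporter was common to all 4 groups. Tamoxifen was injected into the tongue of adult littermates fed doxycycline, and cells were sorted for viability and not for the reporter, so recombined and other cells were sequenced together. There were 2 libraries per group, taken 15 days after induction, and they are called N1, N2, E1 and so on. Values of a pair are given in that order. The title of N2 carries a pair of animal numbers, so this library may pool animals. With 2 libraries per group, p-values measure only the spread between those libraries. In the comparisons of groups, all 4 groups share 1 estimate of that spread.

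EGF family ligands are made as membrane-anchored precursors. Proteases of the ADAM family release them, and they then bind receptor tyrosine kinases on the same or on neighbouring cells. Areg, Ereg, Epgn, Btc, Hbegf and Tgfa encode ligands of EGFR, while Nrg1 encodes neuregulin 1, a ligand of ERBB3 and ERBB4. ERBB2 binds no ligand of its own and pairs with the other receptors, and ERBB3 signals mainly through such pairs. In stratified epithelia the pathway is known for its part in keratinocyte proliferation, migration and wound repair, largely through the RAS-ERK cascade.

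Of the ligand genes, 4 lie close together on mouse chromosome 5 (build GRCm38, GENCODE annotation). Epgn occupies chr5:91027464-91035215, Ereg chr5:91074622-91093646 and Areg chr5:91139599-91148432, all on the plus strand, and Btc occupies chr5:91357261-91402994 on the minus strand. The other members lie elsewhere, among them Tgfa on chromosome 6, Erbb3 on chromosome 10, and Egfr and Erbb2 on chromosome 11. The annotated start of Ereg overlaps an antisense gene, Gm19610, which had 0 to 3 UMIs per library in epithelial cells.

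The upstream sequences of Areg and Epgn are shown because Epgn separated the epithelial libraries by the YAP transgene and Areg did not, as described below. Both are plus-strand sequences from RefSeq, 5′ to 3′, that end at the base before the GENCODE gene start. That of Areg is chr5:91139349-91139598 and that of Epgn is chr5:91027267-91027463. Capitals mark a cyclic AMP response element (TGACGTCA) and a TATA box (TATAAA).
Areg: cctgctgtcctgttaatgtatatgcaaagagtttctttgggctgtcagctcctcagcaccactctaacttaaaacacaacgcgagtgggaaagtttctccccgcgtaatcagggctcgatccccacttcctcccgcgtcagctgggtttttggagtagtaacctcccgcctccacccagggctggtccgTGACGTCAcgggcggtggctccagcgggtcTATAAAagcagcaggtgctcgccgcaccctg
Epgn: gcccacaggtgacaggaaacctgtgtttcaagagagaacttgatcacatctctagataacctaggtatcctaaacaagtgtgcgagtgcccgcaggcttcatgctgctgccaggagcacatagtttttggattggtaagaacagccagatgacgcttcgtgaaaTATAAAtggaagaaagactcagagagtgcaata

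Promoters of 6 of the 10 members were found in the RefSeq table, and the 250 bases before each RefSeq start were searched on both strands for 4 motifs. These were the TEAD motif GGAATG, bound by the DNA-binding partners of YAP, the AP-1 motif TGANTCA, the cyclic AMP response element TGACGTCA and the TATA box TATAAA. Among 32851 promoters of the same length, they occurred in 12.6%, 6.75%, 1.55% and 12.4%. Areg had the cyclic AMP response element 61 bases and the TATA box 31 bases before its start. Epgn had a TATA box 33 bases before its GENCODE start, which is 86 bases before the RefSeq start. Erbb2 had 1 TEAD motif, 88 bases before the RefSeq start. No match to any of the 4 was found in the windows of Btc, Tgfa and Egfr. A match describes the letters only.

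The matrices held 42550 cells, of which 25199 passed the limits on genes, UMIs and mitochondrial UMIs per cell. The epithelial gate (Krt5, Krt14, Krt15, Krt13 and Krt6a together at least 0.5% of UMIs and no Ptprc UMI) took 12957 cells, 170 in EY1 to 4055 in E1. The immune gate (at least 1 UMI of Ptprc, the gene of the leukocyte antigen CD45) took 11218, 663 to 3949 per library, and 1024 cells fell in neither. Median UMIs per cell were 12575 to 23570 in epithelial and 3828 to 10800.5 in immune cells. Pairs of libraries shared 2 to 19 cell barcodes. Krt5 was detected in 96.7% to 99.7% and Epcam in 65.9% to 91.2% of the gated epithelial cells. Levels are given as CPM, the UMIs of a gene per 1000000 UMIs of the gated cells. In comparisons of a gate, its total was scaled between libraries by the trimmed mean of M values (TMM), and the marker lists and classes have no such scaling. Yap1 RNA followed the YAP labels. Endogenous and transgene RNA were not told apart in it, and E6-E7 RNA was not examined. Yap1 was at 34.5 and 41.7 CPM in N epithelial cells, 31.5 and 46.1 in E, 215 and 447 in Y, and 216 and 174 in EY. RNA of other cells was also present in the epithelial sums. A list of 6 immune genes, of which all 6 were detected, summed to 22.7 to 34.3 CPM without the YAP transgene and to 71.2 to 171 CPM with it, compared with 10539 to 20882 CPM in immune cells. A list of 4 fibroblast genes ranged, as a sum, from 1226 CPM in N2 down to 28.2 CPM in EY2. Almost all of it was Dcn, while Col1a1 did not exceed 2.04 CPM, Col3a1 2.79 CPM and Pdgfra 0.343 CPM. Which cells the Dcn RNA came from was not tested. A list of 4 red cell genes summed to between 1.73 CPM in EY2 and 679 CPM in N2. The endothelial gene Cdh5 was at 0 in all 8 libraries. The part of such RNA in the values below was not tested.

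Epgn and Ereg were the members that rose in the epithelial cells of mice with the YAP transgene. Epgn, which encodes the low-affinity EGFR ligand epigen, was at 4.15 and 2.26 CPM in the N pair, 6.53 and 1.43 in the E pair, 13.3 and 19.1 in the Y pair, and 33.7 and 50.2 in the EY pair. Within the cell limits, every Y and EY library was thus above every N and E library, and both EY libraries lay above both Y libraries. The 2 EY libraries were both higher than the 2 N libraries, with a log2 fold change of 3.65 ± 0.64 (SE; edgeR adjusted p = 0.0158). Across the YAP transgene as a whole (4 libraries against 4, adjusted for E6-E7) Epgn rose by 2.81 ± 0.46 (edgeR adjusted p = 0.0118). This call was kept when each library in turn was left out, with edgeR adjusted p of 0.00964 to 0.0414. In Y alone against N the log2 fold change was 2.25 ± 0.61 and did not pass (edgeR adjusted p = 0.184).

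More cells held an Epgn UMI, so its level did not rest on a few cells. After each cell was thinned to 2000 UMIs, 7.69% of epithelial cells in EY1 (95% exact binomial interval, 4.16% to 12.8%) and 7.60% in EY2 (6.48% to 8.84%) had at least 1, against 0.609% in N1 and 0.964% in N2. The shares were 2.10% in Y1 and 3.0% in Y2. Intervals cover counting error only. Without thinning, the shares ran from 1.93% in N2 to 37.3% in EY2. Immune cells, thinned in the same way, had an Epgn UMI in 0% to 1.81% of cells. The cell richest in Epgn held 1.07% to 10.2% of the Epgn UMIs in each Y and EY library.

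Ereg encodes epiregulin, an EGFR ligand that is also bound by ERBB4. N epithelial cells had 0.0790 CPM in N1 and 0 in N2, from 4 UMIs in all. It was at 0.940 and 0.0797 CPM in the E pair, 6.48 and 2.72 in the Y pair, and 3.25 and 9.11 in the EY pair. No library with the YAP transgene overlapped one without it. Against the 4 N UMIs, the pooled level was 122-fold higher in EY (95% counting interval, 47.2 to 451) and 69.3-fold higher in Y (26.7 to 257). EY2 held 321 of the 329 EY UMIs, and EY1 alone was 47.7-fold above N (12.8 to 217). These intervals treat UMIs as independent. EY exceeded N by 6.60 ± 1.17 on the log2 scale (edgeR adjusted p = 0.0163) and the YAP transgene raised Ereg by 4.31 ± 0.79 (edgeR adjusted p = 0.0168). The Y against N difference of 6.05 ± 1.16 did not pass (edgeR adjusted p = 0.0864), but it passed in 2 of 9 alternatives of processing. Fitted values of a gene this close to 0 depend on the small count the model adds. The YAP call for Ereg was lost without N1 (edgeR adjusted p = 0.0501) and without EY2 (edgeR adjusted p = 0.0543). Cells outside the limits, of any type, held more Ereg, at 0 and 4.80 CPM in the N pair (118 UMIs in N2), 5.69 and 0.408 in the E pair, 21.1 and 25.5 in the Y pair, and 9.59 and 18.8 in the EY pair. Without the upper cell limits, Ereg in EY against N was 3.32 and did not pass (edgeR adjusted p = 0.0546), while its YAP difference was 3.71 (edgeR adjusted p = 0.00880).

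A single cell held 115 of the 153 Ereg UMIs in Y1 (75.2%). It had 17698 UMIs, its keratins made up 0.938% of them, and 1 of the 6 immune genes was detected in it. Without it, Y1 fell from 6.36 to 1.58 CPM on unscaled totals, still above N and E, and the pooled Y ratio to N was 30.8 (11.6 to 115). The EY against N difference was then 6.60 (edgeR adjusted p = 0.0145), that of the YAP transgene 3.93 (edgeR adjusted p = 0.0143) and that of Y against N 4.96 (edgeR adjusted p = 0.120). Elsewhere Ereg was spread thinly. After thinning, it was detected in 1.18% of EY2 cells (0.760% to 1.76%), in 0.699% of Y2 cells and in 0 of 3446 N1 cells, with an exact upper limit of 0.107% at that depth. Without thinning it was detected in 0.0870% of N1 cells.

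**Figure D1:**
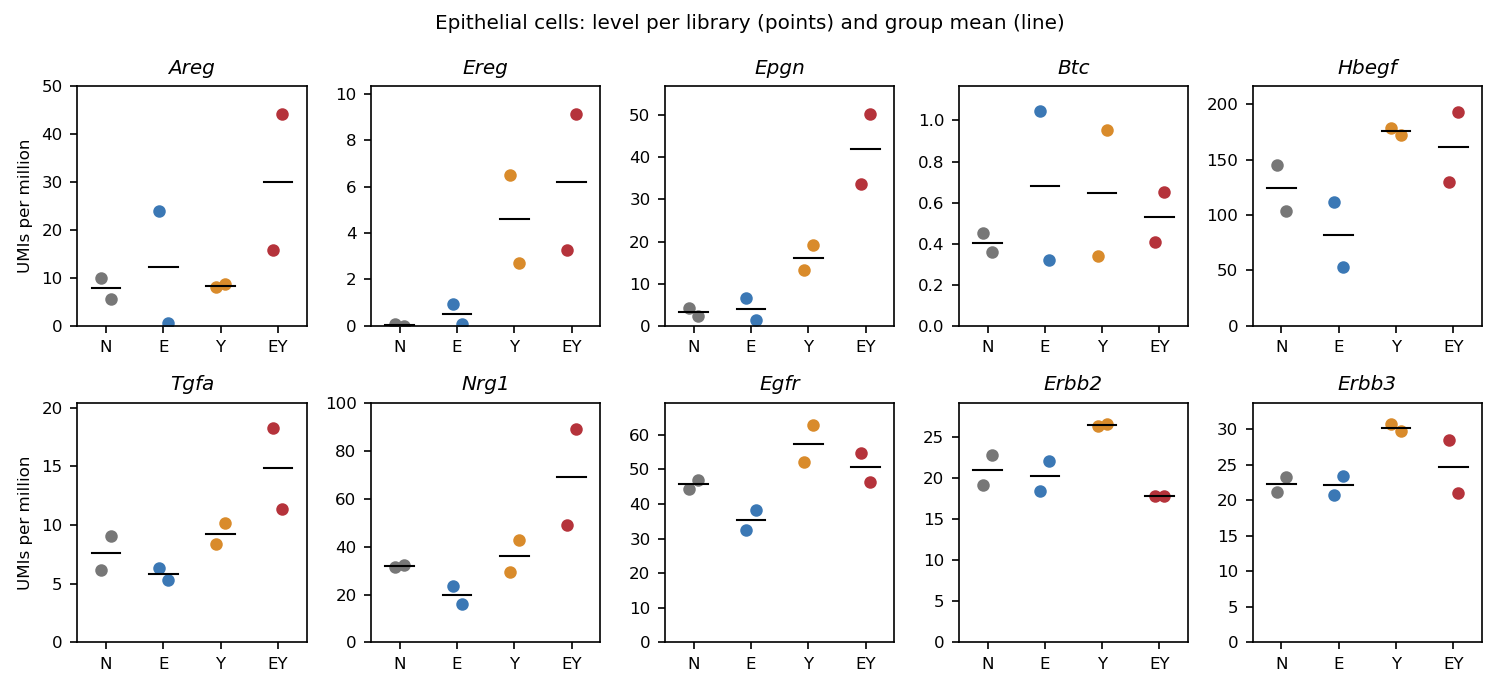
Level of each of the 10 genes in epithelial cells, in TMM-scaled CPM on a linear axis from 0, by group. Points are libraries (2 per group) and lines group means. Epgn and Ereg are the only panels in which all Y and EY points lie above all N and E points, while the receptors Egfr, Erbb2 and Erbb3 stay within narrow bands.

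Areg encodes amphiregulin, an EGFR ligand made by keratinocytes and by several leukocytes. Its epithelial level was 10.1 and 5.72 CPM in the N pair, 24 and 0.638 in the E pair, 8.18 and 8.65 in the Y pair, and 15.8 and 44.2 in the EY pair. The 2 E libraries differed 37.7-fold from each other and spanned all but 1 of the others. EY against N was 1.95 ± 1.13 (edgeR adjusted p = 0.239) and Y against N was 0.05 ± 1.11 (edgeR adjusted p = 0.998). Areg, which lies next to Ereg on the chromosome, therefore did not share its separation by the YAP transgene. After thinning, 5.43% of EY2 cells and 4.14% of EY1 cells had an Areg UMI, against 0.362% to 2.27% in the other 6 libraries. With 1 library left out, EY against N for Areg was 0.96 to 2.49. It passed only without E1 or without E2, which are not part of that contrast. All groups shared 1 estimate of the spread, so the E pair entered this p-value too. Of 9 other alternatives, 1 called it.

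Hbegf encodes heparin-binding EGF-like growth factor, which is released rapidly at wounds. It was at 145 and 104 CPM in the N pair, 112 and 52.9 in the E pair, 179 and 172 in the Y pair, and 130.0 and 193 in the EY pair. The libraries with YAP were mostly higher, but EY1 lay below N1. The YAP difference of 0.73 ± 0.25 did not pass (edgeR adjusted p = 0.0941). Tgfa, the gene of transforming growth factor alpha, was at 6.20 and 9.05 CPM in N, 6.37 and 5.34 in E, 8.35 and 10.2 in Y, and 18.3 and 11.4 in EY. Both EY libraries were above all others, and neither EY against N (0.93 ± 0.31, edgeR adjusted p = 0.0729) nor the YAP transgene (0.78 ± 0.27, edgeR adjusted p = 0.0959) passed. Btc, the gene of betacellulin, was rare throughout, at 0.319 to 1.04 CPM from 1 to 60 UMIs per library, and no difference between groups was detectable at that depth.

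Nrg1 was called in EY and not in Y. EY was not tested directly against Y, and the interaction, given below, did not pass. It was at 31.6 and 32.2 CPM in the N pair, 23.6 and 16.2 in the E pair, 29.4 and 42.8 in the Y pair, and 49.2 and 89.2 in the EY pair. Within the cell limits, the EY libraries were the highest 2 and the E libraries the lowest 2, while Y overlapped N. EY against N was 1.14 ± 0.32 (edgeR adjusted p = 0.0468), and Y against N was 0.18 ± 0.32 (edgeR adjusted p = 0.884). The EY call was kept only when EY1 was left out (edgeR adjusted p = 0.0177) and was lost without any other single library, EY2 included, when the log2 fold change was 0.62 (edgeR adjusted p = 0.299). It was also lost with at least 200 genes per cell (edgeR adjusted p = 0.0539) and with basal-keratin epithelial cells only (edgeR adjusted p = 0.0515). The interaction, in which the log2 changes of E and Y are subtracted from that of EY, was 1.63 ± 0.45 for Nrg1. Its unadjusted edgeR p was 0.00759 and it did not pass the adjustment (edgeR adjusted p = 0.349). After thinning, 14.3% of EY2 cells and 10.1% of EY1 cells had an Nrg1 UMI, compared with 2.71% to 7.49% in the other libraries. Cells outside the limits, of any type, had Nrg1 at 44.4 and 48.9 CPM in the N pair and 41.8 and 27.7 in the E pair. They had 84.6 and 94.5 CPM in the Y pair and 91.1 and 135 in the EY pair, so Y did not overlap N there.

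The receptor genes varied little. Egfr was at 44.3 and 47.1 CPM in N, 32.5 and 38.3 in E, 52.1 and 62.7 in Y, and 54.8 and 46.5 in EY. E was lowest and Y highest on average, with EY1 among the Y values and EY2 among the N values. The YAP transgene difference was 0.42 ± 0.12 (edgeR adjusted p = 0.0620) and the E6-E7 difference was -0.28 ± 0.12 (edgeR adjusted p = 0.428). The YAP difference of Egfr passed in 2 of 9 alternatives of processing. Erbb2 was at 19.2 and 22.9 CPM in N, 18.5 and 22.2 in E, 26.4 and 26.7 in Y, and 17.9 and 17.8 in EY. Erbb3 was at 21.2 and 23.3 CPM in N, 20.8 and 23.4 in E, 30.8 and 29.7 in Y, and 28.4 and 21.0 in EY. For both genes the 2 Y libraries were above the other 6. The Y against N differences were 0.34 ± 0.17 for Erbb2 (edgeR adjusted p = 0.481) and 0.45 ± 0.18 for Erbb3 (edgeR adjusted p = 0.391).

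By group mean within the cell limits, the levels of Epgn ran EY, Y, E, N, with only E and N overlapping. Ereg ran in the same order, with Y and EY overlapping and E and N barely apart (0.0797 and 0.0790 CPM at their nearest). Areg ran EY, E, Y, N, with every neighbour overlapping. Nrg1 and Tgfa both ran EY, Y, N, E, with EY separate from Y in each, and N separate from E for Nrg1 only. Hbegf and Egfr ran Y, EY, N, E, and their only separate neighbours were N and E for Egfr. Erbb2 ran Y, N, E, EY, with N and E overlapping, and Erbb3 ran Y, EY, N, E, with only Y separate. These separations between pairs of libraries are descriptions.

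Counted over the family, 3 of the 10 members rose and none fell in EY against N, in a comparison in which 18.8% of 13555 genes were called, 9.31% upwards and 9.5% downwards. Their median log2 fold change was 0.71, against -0.05 for all genes tested. For the YAP transgene 2 of 10 rose and none fell, with 8.98% of all genes called 5.26% upwards and 3.72% downwards, and medians of 0.71 and -0.03. None of the 10 was called in Y against N (0.457% of genes called, 0.384% upwards and 0.0738% downwards), in E against N (0.243%, with 0.236% upwards and 0.00738% downwards) or for the E6-E7 transgene (0.406%). In these 3 comparisons edgeR gave an unadjusted p under 0.05 to Ereg, Epgn and Erbb3 in Y, to Ereg in E, and to Egfr for E6-E7, and DESeq2 called 2, 0 and 0 members. No gene of any kind was called for the interaction (0%), for which 1562 genes had an unadjusted edgeR p under 0.05 and DESeq2 called 85. The comparisons against N share the N libraries. The EY call was lost for all 3 members without N1, N2 or EY2, when edgeR adjusted p for Epgn was 0.0854, 0.0805 and 0.0965.

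**Figure D2:**
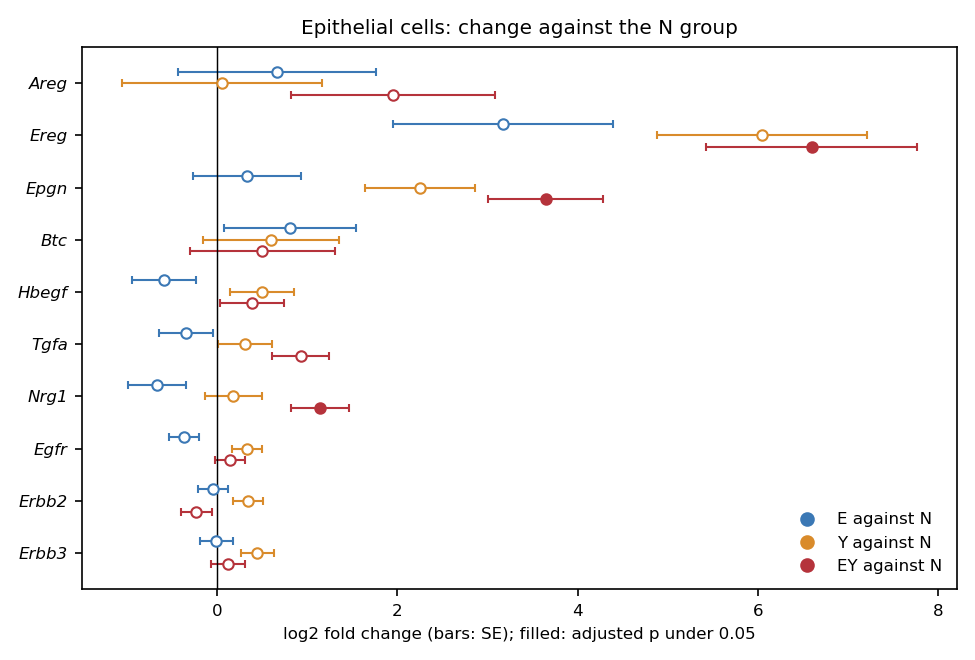
Log2 fold change against N in epithelial cells for each gene in E, Y and EY, with bars of 1 SE from the edgeR fit. Filled points passed an adjusted p of 0.05, namely Epgn at 3.65, Ereg at 6.60 and Nrg1 at 1.14, all in EY. The receptors lie close to 0 and Areg and Btc have wide bars.

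Within the epithelial gate, cells were divided by whether their Krt5, Krt14 and Krt15 UMIs outnumbered their Krt13 and Krt4 UMIs. Krt13 and Krt4 encode keratins of the suprabasal layers of oral epithelium. Cells with as many or more Krt13 and Krt4 UMIs made up 4.44% to 13.7% of epithelial cells, and 2.65% to 9.29% lay near the boundary (shares of 0.4 to 0.6), so the division is a range and not a cell type. EY1 had 16 such cells, fewer than the 20 required, and was left out, which left 7 libraries compared within each library.

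In this division 5 of the 10 members differed, 4 higher in the Krt13/Krt4 cells and 1 higher in the basal-keratin cells, where 28.5% of 13508 genes were called (11.9% higher and 16.6% lower). Nrg1 was higher in the basal-keratin cells of all 7 libraries, by 33.7 against 15.6 CPM in N1, 32.6 against 8.69 in N2, 25.4 against 9.01 in E1, 16.1 against 11.9 in E2, 31.0 against 9.94 in Y1, 44.2 against 27.0 in Y2 and 90.9 against 32.7 in EY2. Its log2 difference was -1.23 ± 0.14 (edgeR adjusted p = 2.61e-05). Hbegf ran the other way in all 7, from 125 to 240.0 CPM in N1, 85.9 to 484 in N2, 100.5 to 168 in E1, 42.3 to 204 in E2, 139 to 465 in Y1, 158 to 229 in Y2 and 185 to 311 in EY2 (1.31 ± 0.22, edgeR adjusted p = 0.000572).

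Erbb2 was also higher in the Krt13/Krt4 cells of all 7 libraries, at 23.8 to 49.3 CPM against 16.5 to 24.1 (0.80 ± 0.10, edgeR adjusted p = 8.46e-05). Erbb3 was higher in 5 of the 7 and lower in E2 and EY2 (0.56 ± 0.14, edgeR adjusted p = 0.00774). Btc was higher in 6 of the 7 (1.85 ± 0.39, edgeR adjusted p = 0.00299), from at most 18 UMIs in any library's Krt13/Krt4 cells. Egfr did not pass (-0.21 ± 0.10, edgeR adjusted p = 0.142), and neither did Epgn (0.04 ± 0.29, edgeR adjusted p = 0.95), Ereg (-0.25 ± 0.51, edgeR adjusted p = 0.783), Tgfa (0.06 ± 0.23, edgeR adjusted p = 0.894) or Areg (0.69 ± 0.27, edgeR adjusted p = 0.0750). Epgn in the basal-keratin cells alone was at 4.47 and 2.32 CPM in N, 10.7 and 19.7 in Y, and 49.3 in EY2, so the order of the groups was the same in them.

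**Figure D3:**
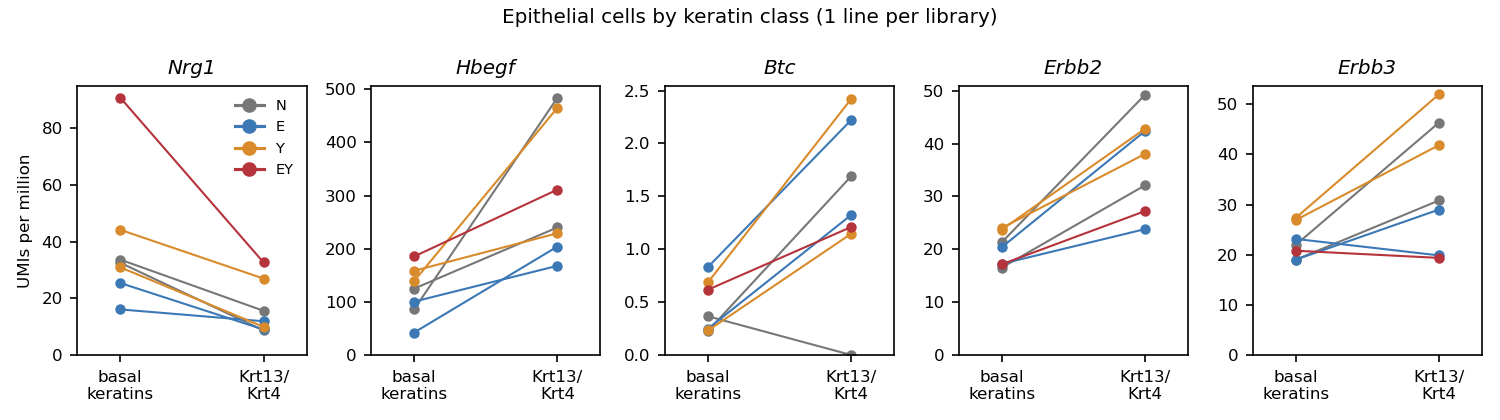
TMM-scaled CPM in basal-keratin and Krt13/Krt4 epithelial cells of the same library for the 5 genes that differed (7 libraries, 1 line each, linear axes from 0). Every Nrg1 line falls and every Hbegf and Erbb2 line rises, from 42.3 to 185 CPM in basal-keratin cells to 168 to 484 CPM in Krt13/Krt4 cells for Hbegf.

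Receptors and most ligands were higher in epithelial cells, and Areg was higher in immune cells. Between epithelial and immune cells of the same libraries, 8 of the 10 members differed, 7 higher in epithelial cells and 1 higher in immune cells, in a comparison where 74.2% of 14518 genes were called (35.7% higher in epithelial cells and 38.5% lower). The log2 differences of those higher in epithelial cells were 2.68 for Epgn, 2.12 for Btc, 2.15 for Hbegf, 2.81 for Tgfa, 2.84 for Egfr, 3.0 for Erbb2 and 2.45 for Erbb3, with edgeR adjusted p from 2.62e-05 (Epgn) to 0.0119 (Btc). Epithelial RNA was present in the immune sums, and the 5 gate keratins there were highest in E1, N1 and EY2 (7318, 5963 and 5321 CPM) and at 469 to 2013 CPM in the others. Immune Egfr was also highest in these 3 libraries, at 11.4, 12.5 and 17.8 CPM, against 1.80 to 8.10 in the rest. The share of Egfr and of Hbegf in immune cells that came from such RNA was not tested.

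Areg was higher in immune cells by 3.51 on the log2 scale (the epithelial minus immune difference was -3.51 ± 0.64, edgeR adjusted p = 0.000597). Immune cells had 89.9 and 122 CPM in the N pair, 78.6 and 112 in the E pair, 111 and 177 in the Y pair, and 139.7 and 57.1 in the EY pair. The groups overlapped, and the YAP transgene difference of 0.24 ± 0.32 did not pass (edgeR adjusted p = 0.728). The epithelial Areg level, as a percentage of the immune level in the same library, was 0.524% in E2, 4.22% to 27.6% in 6 libraries and 85.7% in EY2. The list of 6 immune genes gave 0.161% to 1.12% by the same measure.

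Immune cells were assigned to classes by how many markers of each they held, and a class name here means cells like that type by those markers alone. T cells with a Foxp3 UMI and type 2 innate lymphoid cells had the highest Areg levels among them. The Foxp3 T cells (Foxp3 encodes the master regulator of regulatory T cells) had 764 and 585 CPM of Areg in the N pair, 452 and 775 in the E pair, 723 and 1371 in the Y pair, and 775 in EY1, and EY2 had only 16 such cells. Over all libraries, 55.7% of the 614 Foxp3 T cells had an Areg UMI, against 11.8% of 4548 other T cells, at median depths of 4950.5 and 5465 UMIs per cell. In every library with 20 or more Foxp3 T cells their level was above that of other T cells, which ranged from 40.7 to 296. Type 2 innate lymphoid cells reached 718 CPM over 80 cells, 55% of them with a UMI. T cells held 54.8% to 84.8% of immune Areg UMIs in N, E and Y2 and 29.7% to 33.5% in Y1, EY1 and EY2. Monocytes or macrophages held more than T cells in Y1 (50.6%) and EY1 (37.3%) and 1.59% to 26.8% in the others. These are descriptions with no test.

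Nrg1 and Ereg were higher in the immune cells of each Y and EY library than in those of any N or E library. Immune Nrg1 was at 16.4 and 5.18 CPM in the N pair, 16.7 and 6.09 in the E pair, 62.3 and 40.6 in the Y pair, and 84.7 and 63.8 in the EY pair. Immune Ereg had no UMI in N1, N2 and E2 and 1 in E1, and was at 1.94 and 1.68 CPM in the Y pair and at 11.6 and 9.44 in the EY pair. For both genes the libraries with and without YAP did not overlap, and for Ereg both EY libraries were also above both Y libraries. In immune cells none of the 9 members tested was called, and neither was any of the 13292 genes (0%), although 2284 genes had an unadjusted edgeR p under 0.05 and DESeq2 called 875. The log2 differences were 2.51 ± 0.45 for Nrg1 (edgeR adjusted p = 0.0906) and 7.26 ± 0.64 for Ereg (edgeR adjusted p = 0.0586). Pooled, Ereg had 259 UMIs with YAP and 1 without, a 124-fold ratio of levels with a counting interval of 22.1 to 4917. That interval treats UMIs as independent and leaves out the spread between libraries, and EY1 alone held 135 of the 259.

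Immune cells with keratins under 0.5% of UMIs gave 4 calls among the 7 members tested for the YAP transgene, in a setting where 464 of 12723 genes were called, 366 upwards. They were Ereg (8.86, edgeR adjusted p = 0.0169), Epgn (3.83, edgeR adjusted p = 0.0352), Nrg1 (3.04, edgeR adjusted p = 0.0169) and Hbegf (1.95, edgeR adjusted p = 0.0169). DESeq2 called Ereg and Nrg1 in all immune cells, among its 875 genes. For the E6-E7 transgene no member was called by edgeR (0% of genes called, 797 with an unadjusted p under 0.05), and DESeq2 called 1 member and 47 genes. The remaining ligands overlapped in immune cells, with Hbegf at 6.57 to 56.0 CPM without and 30.3 to 62.0 CPM with YAP, and Epgn at 0.155 to 1.82 and 0.988 to 15.3 CPM. In Y2, a single cell held 100 of the 340 immune Hbegf UMIs.

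**Figure D4:**
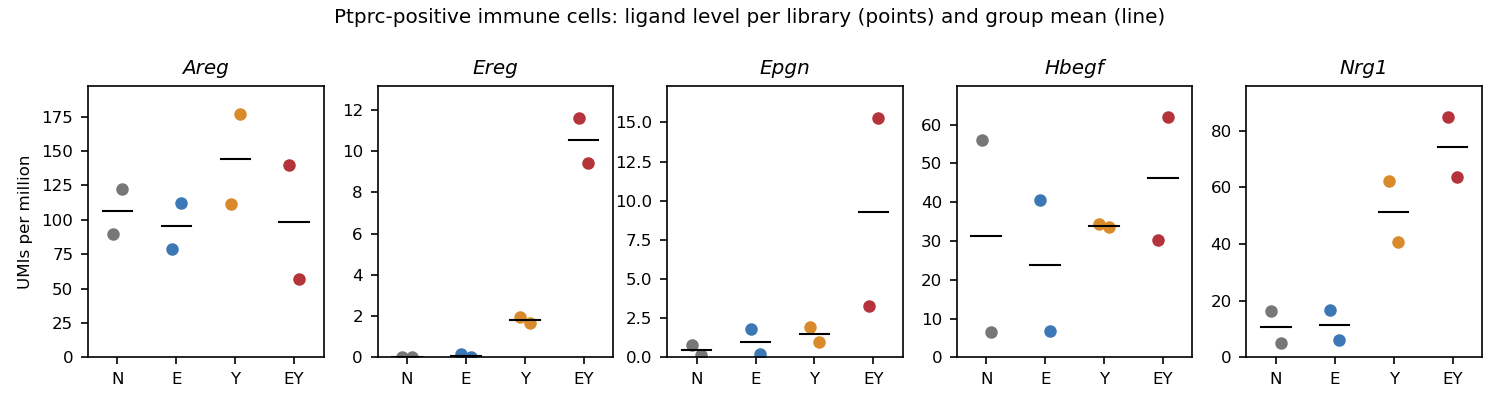
Level of 5 ligands in Ptprc-positive immune cells, in TMM-scaled CPM on linear axes from 0, by group. Points are libraries (2 per group) and lines group means. All Y and EY points lie above all N and E points for Ereg and Nrg1, whereas the groups overlap for Areg, Epgn and Hbegf.

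Monocytes or macrophages (2816 cells) held 85.4% and 72.0% of immune Nrg1 UMIs in the Y pair, 40.3% and 35.2% in the EY pair, and 37.5% to 70.9% in N and E. Nrg1 was detected in 29.6% to 55.5% of these cells in Y and EY and in 10.9% to 16.5% in N and E, without thinning. Within the class, Nrg1 was at 31.3 and 15.3 CPM in the N pair, 36.4 and 16.3 in the E pair, 129 and 70.8 in the Y pair, and 87.8 and 85.7 in the EY pair, again without overlap. An edgeR fit on this class alone, chosen after the data were seen, called Nrg1 for the YAP transgene (2.12 ± 0.32, edgeR adjusted p = 0.0408). That call was kept without N2 or Y2 (edgeR adjusted p = 0.0470 and 0.0162) and lost when any of the other 6 libraries was left out (edgeR adjusted p of 0.0662 to 0.123). Neutrophils had 34.5 CPM of Nrg1 over all libraries and T cells 4.76.

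Immune Nrg1 was also compared with the keratins as a measure of epithelial RNA in the same cells. Its immune level was 214%, 102%, 115% and 64.7% of the epithelial level in Y1, Y2, EY1 and EY2, and 17.9% to 78.1% in N and E. For Krt5 the same measure was 26.7% and 2.78% for the N pair, 29.1% and 3.25% for the E pair, 7.64% and 9.72% for the Y pair, and 2.17% and 26.5% for the EY pair. The Nrg1 percentage was the higher of the pair in all 8 libraries.

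Ereg in immune cells was found chiefly in neutrophils and in monocytes or macrophages, in shares that differed between libraries. Neutrophils held 103 of the 135 Ereg UMIs in EY1, 24 of 65 in Y1, 15 of 42 in EY2 and 1 of 17 in Y2, and monocytes or macrophages held 23, 17, 9 and 11. In EY2 the immune cell richest in Ereg held 6 of the 42 UMIs, with 0.900% keratins and 0 of the 6 immune genes. Immune Ereg was 30.2%, 66.1%, 237% and 93.6% of the epithelial level in Y1, Y2, EY1 and EY2. The part of epithelial RNA in it was not tested. Neutrophils had 9.65 CPM of Ereg in Y1, 12.6 in EY1 and 7.78 in EY2. N2 and E2 had 0 Ereg UMIs in 49 and 67 neutrophils, and N1, E1 and Y2 had fewer than 20 neutrophils. The numbers of neutrophils with YAP (10 in Y2 to 773 in EY1) and without it (2 to 67) differed as well. Without the neutrophil class the YAP difference of immune Ereg was 6.49 (edgeR adjusted p = 0.0536), and that of Nrg1 was 2.50 (edgeR adjusted p = 0.0842).

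**Figure D5:**
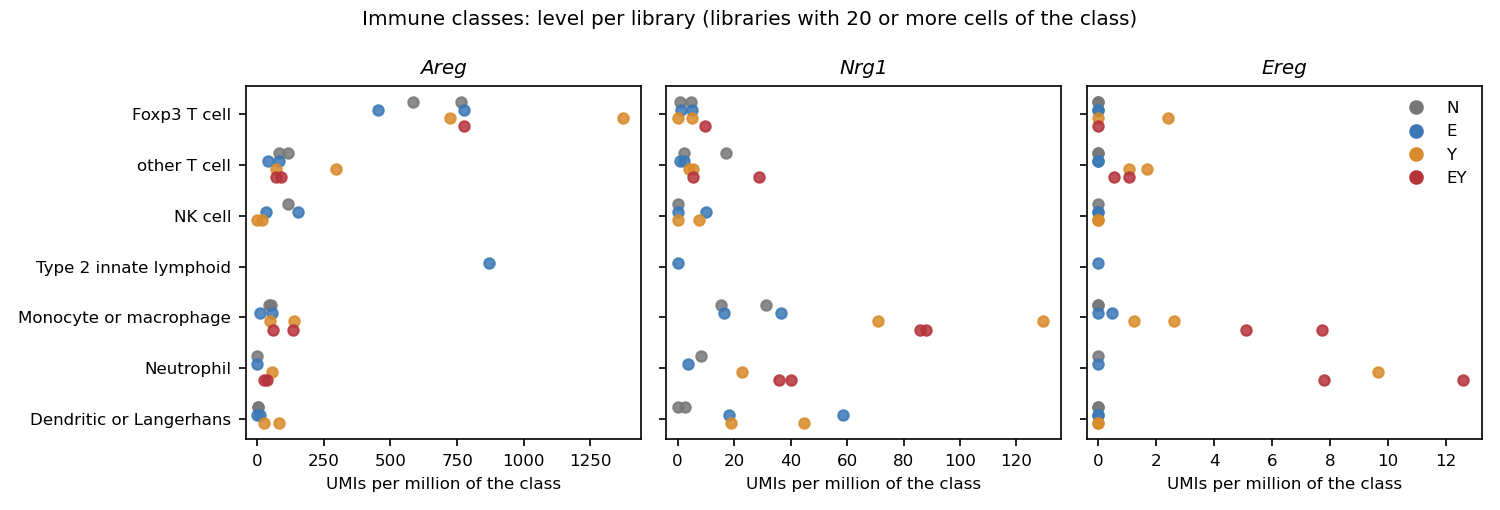
Areg, Nrg1 and Ereg in immune classes, in CPM of the class on linear axes from 0. Each point is a library with 20 or more cells of that class, coloured by group. Areg reaches 452 to 1371 in Foxp3 T cells and 871 in the 1 library plotted for type 2 innate lymphoid cells (E2), Nrg1 is highest in monocytes or macrophages of Y and EY (70.8 to 129), and Ereg reaches 7.78 to 12.6 in neutrophils of Y1, EY1 and EY2.

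Whether the YAP transgene changed a member by different amounts in epithelial and immune cells was tested in 1 model over both. None of the 10 passed (0.537% of 14518 genes called, 0.179% with the higher effect in epithelial and 0.358% in immune cells). The difference was -3.27 ± 1.12 for Ereg (edgeR adjusted p = 0.212) and -1.67 ± 0.54 for Nrg1 (edgeR adjusted p = 0.185), each with the larger value in immune cells. With immune cells limited to those with keratins under 0.5% of UMIs, Hbegf passed with -1.17 (edgeR adjusted p = 0.0369).

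The rest of the pathway was followed in a list of 47 genes with roles in ligand release, signal transmission, feedback and response, 43 of which were tested in epithelial cells. In EY against N, 6 rose and 9 fell of 43, beside 9.31% and 9.5% of all genes, with a list median of -0.28 against -0.05 for all genes. For the YAP transgene 6 rose and 6 fell, beside 5.26% and 3.72% of all genes, with medians of -0.12 and -0.03. In Y against N only Axl passed (1.84, edgeR adjusted p = 0.0370), and in E against N and for the E6-E7 transgene none did, by edgeR.

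Of 13 feedback inhibitors, which damp EGFR or ERK signalling, 4 fell and 1 rose in EY against N (9.5% and 9.31% of all genes), with a median of -0.82. Spry1, of the Sprouty inhibitors, was at 23.1 and 15.2 CPM in the N pair, 12.3 and 22.8 in E, 13.3 and 9.25 in Y, and 7.72 and 2.89 in EY, where both libraries were the lowest (EY against N, -2.17 ± 0.53, edgeR adjusted p = 0.0338). Lrig3, of a family whose member Lrig1 restrains EGFR, was at 80.3 and 93.9 CPM in N, 75.4 and 110.1 in E, 72.0 and 40.7 in Y, and 27.6 and 19.1 in EY, again lowest in EY (-1.94 ± 0.34, edgeR adjusted p = 0.0154). Spred2 fell with the YAP transgene by 1.17 (edgeR adjusted p = 0.0255), and Spry2 fell by 1.55 (edgeR adjusted p = 0.0468). The inhibitor that rose was Dusp5, a nuclear phosphatase of ERK, at 8.34 and 8.93 CPM in N, 8.31 and 1.75 in E, 23.4 and 29.3 in Y, and 30.5 and 46.9 in EY. No library with YAP overlapped one without it for Dusp5 (YAP transgene, 2.25 ± 0.45, edgeR adjusted p = 0.0249).

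Genes that the ERK pathway induces moved in both directions. Of the 10 on the list, 2 rose and 3 fell in EY against N, beside the same 9.31% and 9.5%. Plaur, the urokinase receptor gene, rose by 3.04 ± 0.68 (edgeR adjusted p = 0.0267) and Ier3 by 1.62 ± 0.34 (edgeR adjusted p = 0.0223). Both were also higher in immune cells of EY than of N, with Plaur at 1132 and 269 CPM against 51.5 and 137, and the part of immune RNA in their epithelial rise was not tested. Egr1, an immediate early transcription factor gene, was at 678 and 462 CPM in N and 210.0 and 158 in EY (-1.64 ± 0.33, edgeR adjusted p = 0.0213). Fos, another immediate early gene, was at 2256 and 1374 CPM in N and 648 and 534 in EY (-1.62 ± 0.41, edgeR adjusted p = 0.0366). Ccnd1, the cyclin D1 gene, rose with the YAP transgene by 1.0 ± 0.20 (edgeR adjusted p = 0.0244).

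Axl, a receptor tyrosine kinase gene that is often studied together with EGFR, was at 6.60 and 6.43 CPM in N, 7.14 and 9.80 in E, 19.8 and 27.0 in Y, and 21.1 and 23.1 in EY. It was higher in every library with YAP (1.62 ± 0.18, edgeR adjusted p = 0.00311). Among the 4 genes of ligand release, Rhbdf2 rose and Adam10 fell in EY against N. Of the adaptors and kinases, Ptpn11 rose and Braf fell. In immune cells no gene of the list was called by edgeR for either transgene, and in the model over both compartments Dusp6 passed, with a YAP effect lower in epithelial cells by 1.65 (edgeR adjusted p = 0.0475). Between epithelial and immune cells, 13 genes of the list were higher in epithelial cells, led by Lrig3 (3.17) and Etv4 (2.8), and 19 were lower, led by Plaur (-5.44) and Dusp5 (-4.00), of 45 tested, which is near the 74.2% called among all genes. Krt13/Krt4 cells had 4 list genes higher, Dusp5 (1.22) among them, and 11 lower of the 43 tested (28.5% of all genes called, 11.9% higher and 16.6% lower), led by Spred2 (-2.35) and Etv4 (-1.46), and 6 of the 13 feedback inhibitors were among those 11.

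Of the 19 other annotated genes between the chromosome 5 ligands or within 500 kb of them, 8 were tested in epithelial cells. Among all genes tested, 9.31% rose in EY against N and 5.26% for the YAP transgene. In the epithelial comparisons of groups and transgenes, only Cxcl2, the gene of a neutrophil-attracting chemokine, passed. It did so in EY against N (3.16 ± 0.79, edgeR adjusted p = 0.0352) and for the YAP transgene (2.59 ± 0.62, edgeR adjusted p = 0.0395). It was at 9.74 and 9.05 CPM in N, 10.1 and 4.70 in E, 50.3 and 11.5 in Y, and 129 and 44.2 in EY. Every library with YAP was above every library without it. Its immune level was far higher, at 1419 and 2570 CPM in N, 1158 and 1758 in E, 5250 and 2773 in Y, and 18796 and 11170 in EY. The list of 6 immune genes stood in epithelial cells at 0.693% and 0.364% of its immune level in Y and at 1.12% and 0.676% in EY, against 0.161% to 0.236% in N and E. The part of immune RNA in the Cxcl2 rise was not tested. Mthfd2l, the nearest tested gene before Epgn, stayed at 6.99 to 12.0 CPM. Between the keratin classes 9 neighbours were tested, and Ppbp was called higher and Rassf6 lower in Krt13/Krt4 cells. Of all genes, 11.9% were called higher and 16.6% lower there.

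The genes whose epithelial levels were most like those of a member were taken by Pearson correlation of log2 CPM over the 8 libraries, among 5105 genes. The libraries share groups and differ in depth, so these values describe likeness only. For Epgn they were Hspb1 (r = 0.995), Ubac1 (0.987) and Cldn4 (0.985), and Cldn4, a tight junction gene, ran from 4.78 CPM in E2 to 84.7 CPM in EY2. For Ereg they were Reep4 (0.956), Vamp5 (0.955) and Rab35 (0.953), for Areg Snhg12 (0.960), Lypd3 (0.943) and Nfyb (0.937), for Nrg1 Hspa4 (0.995), Riok1 (0.992) and Ube2j1 (0.990), and for Egfr Wdr26 (0.956), Ctnnal1 (0.953) and Retreg1 (0.95).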

How the data were processed

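Per the labels and the study's methods, viable cells from tongue epithelium were captured with a 10x Genomics 3′ kit, named v2 in the labels and v3.1 in the methods, and the authors made the matrices with Cell Ranger 5.0.0 on mm10. The deposited values are raw UMI counts per gene and cell. Cells were kept if they had 1000 to 5500 genes, no more than 30000 UMIs and a mitochondrial share up to 7%, and no doublet caller was run. Counts were summed per library over each gate and tested with edgeR 4.0.16 in R 4.3.3 (filterByExpr, TMM, quasi-likelihood test, Benjamini-Hochberg over all genes tested, called under 0.05). A model with group means gave pairwise contrasts and the interaction, an additive model each transgene's effect, and within-library models blocked by library the rest. SEs were derived from the fold change and its F statistic. Immune classes needed at least 2 markers of a class and no tie. DESeq2 1.42.0, RLE scaling, other filters and gates, and leaving out each library were alternatives. The tests were also run on simulated counts, with the same fixed spread for all genes and changes only in well-counted genes. That run does not show how they behave for sparse genes such as Ereg or uneven pairs such as Areg in E.

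The members, lists and named-gene rule were chosen with earlier results of these data known. The rule names all 10 members in every comparison, up to 4 called pathway genes per direction with a mean of at least 10 CPM and the largest change, the 3 genes most like Ereg, Epgn, Areg, Nrg1 and Egfr with a mean of at least 20 CPM, and genes within 500 kb of the chromosome 5 ligands. Thinning drew 2000 UMIs per cell. For likeness 0.5 was added before taking logs. Library totals were 46483469 to 102427359 UMIs. Gene positions are those of GENCODE on GRCm38, and promoters those of RefSeq. Protein sequences were not used here.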

Additional observations from a re-analysis of the deposited data

Results flagged for a closer look

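Cells in neither gate, with no Ptprc UMI and keratins under 0.5% of UMIs (1024 cells, 31 to 254 per library), entered no comparison. In them the ligands Areg and Nrg1 were above both N libraries in libraries with the YAP transgene, which drew attention because a signal above the control level appeared outside the gates. Areg averaged 178 CPM in Y (118 and 237, 410 UMIs in all) and 99.1 in EY (54.5 and 144, 192 UMIs), against 24.1 and 45.9 in N. Nrg1 averaged 26.5 in Y (14.0 and 39.1, 62 UMIs) and 39.3 in EY (31.2 and 47.4, 92 UMIs), against 7.70 and 11.2 in N. No test was run on these cells, and which cell types they hold was not tested.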

How the results depend on the processing

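Without the filter on low counts, members called moved to 1, 2 and 5 in epithelial cells of E, Y and EY against N, to 3 for the interaction, 5 for epithelial YAP, 2 for epithelial E6-E7 and 3 for immune YAP. Without the upper cell limits they were 3 in Y against N and 7 for YAP, where 1504 and 6131 of 14816 genes were called, and with DESeq2 they were 2 and 6 in epithelial cells, where 452 and 2762 of 13555 genes were called, and 2 (YAP) and 1 (E6-E7) in immune cells. Immune YAP gave 1 with at least 200 genes per cell (EY against N then 2, as with basal-keratin cells only), 4 with keratins under 0.5%, and 1 in the monocyte or macrophage class, also without N2 or Y2. The difference between compartments gave 1 with keratins under 0.5%. For epithelial YAP, Hbegf, Tgfa and Nrg1 each passed in 3 of 9 alternatives of processing, and Egfr in 2. The main YAP difference of Nrg1 was 0.99 and did not pass. The causes were not tested.

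Leaving out 1 library, members called ranged from 0 (without N1, N2 or EY2) to 3 in EY against N, from 1 to 3 for epithelial YAP (1 without N1 or EY2), from 0 to 1 for immune YAP (1 without Y2), from 8 to 8 between compartments, from 5 to 5 between keratin classes and from 0 to 0 elsewhere. Genes called in EY against N then ranged from 5 to 4061 and for epithelial YAP from 324 to 1707. Direction was followed only where the main fit gave an unadjusted p under 0.05 or an absolute log2 fold change of at least 1. Within that set, direction turned for Ereg alone, in E against N (-0.13) and for E6-E7 (-0.49) with no upper limits. Its direction also turned in the interaction without E1, where leaving out 1 library gave -6.26 (without N1) to 0.27. Of the 759 alternative values for single genes in that set, 694 kept direction and side of the threshold. No paired analysis was possible because replicate numbers only follow accession order and pair no samples. Depth limits Btc and Ereg most, and 170 epithelial cells in EY1 limit that library. Without the upper cell limits EY1 had 481 epithelial cells with 20011668 UMIs, against 2454816 UMIs with them. These limits took N1 from 3521 to 3447 epithelial cells and N2 from 741 to 415.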
